A study of Mus musculus with 2 samples.

Results

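The genes described here encode variable subunits of the BAF chromatin remodelling complex, among them those exchanged as a neural progenitor becomes a neuron. The members were chosen by name: Actl6a, Actl6b, Phf10, Dpf1, Dpf2, Dpf3, Ss18, Ss18l1, Smarca2 and Smarca4. All 10 were matched by gene identifier without its version, and they are 10 of 43346 gene rows in the tables. Total RNA of the neural tube was sequenced from 2 newborn mouse pups of the strain B6NCrl at postnatal day 0. Each library came from a single neural tube, and both pups came from 1 pregnant female, so there is 1 group with n = 2 and no treated, mutant or earlier group. Sex was not collected, and each value below is a level at birth rather than a change over development.

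BAF complexes use the energy of ATP to move nucleosomes, and they are assembled from a shared core and from positions that related proteins can fill in turn. In progenitors the actin-like position is held by BAF53a (Actl6a), the zinc finger position by BAF45a (Phf10) or BAF45d (Dpf2), and the SS18 position by Ss18. In neurons that have left the cell cycle BAF53b (Actl6b), BAF45b (Dpf1), BAF45c (Dpf3) and CREST (Ss18l1) take these places. The ATPase is either BRG1 (Smarca4) or BRM (Smarca2). In the textbook account the microRNAs miR-9-3p (also called miR-9*) and miR-124 repress Actl6a in neurons, and the repressor REST keeps those microRNAs low outside neurons.

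Expected counts, which are estimated read numbers, summed to 26916916 over genes in pup 1 and 40003518 in pup 2. Levels are given in TPM, a share of all transcripts that corrects for transcript length and so allows genes to be set side by side. Of the marker genes, 7 of 7 progenitor and 6 of 6 neuronal ones reached a TPM of 1 in both pups. That limit was also passed by 63.8% of 21474 protein-coding genes, so passing it does not identify a tissue. Median levels were 15.1 and 12.8 TPM for the progenitor list and 332 and 295 TPM for the neuronal list, in pup 1 and pup 2. The lists summed to 2422 and 2279 TPM and to 3185 and 2930 TPM, but Fabp7, a gene of radial glia, alone gave 2259 and 2129 TPM of the progenitor sum, while Mki67, a gene of dividing cells, stood at 2.66 and 2.50 TPM. Markers of other cells were also present, with 4 of 4 oligodendrocyte-lineage genes (summed levels of 261 and 508 TPM), 3 of 3 astrocyte genes (481 and 488 TPM), 2 of 2 Schwann cell genes (94.0 and 88.0 TPM) and 2 of 2 meningeal fibroblast genes (257 and 323 TPM). The sensory ganglion list summed to 96.0 and 140 TPM, and 2 of its 3 genes reached a TPM of 1 in pup 2 only, Avil at 0.7 and 8.55 TPM and P2rx3 at 0.58 and 4.95 TPM, while Prph was at 94.8 and 126 TPM. In such bulk tissue, fewer cells of a type and less RNA per cell cannot be told apart. The part that cell composition plays in the levels below was not tested.

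All 10 members were detected, meaning a TPM of at least 1 in both pups, against 63.8% of 21474 protein-coding genes. Actl6b and Dpf1 had the highest levels of the 10, and Phf10 and Dpf3 the lowest, in both pups. The median member stood at 37.5 TPM in pup 1 and 37.0 TPM in pup 2, beside 15.6 and 15.02 TPM over the 15386 genes detected in both pups. Ranked by mean TPM over those genes, Actl6b exceeded 92.1% of them and Dpf1 90.0%. Phf10 exceeded 50.2% and Dpf3 40.5%.

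**Figure D1:**
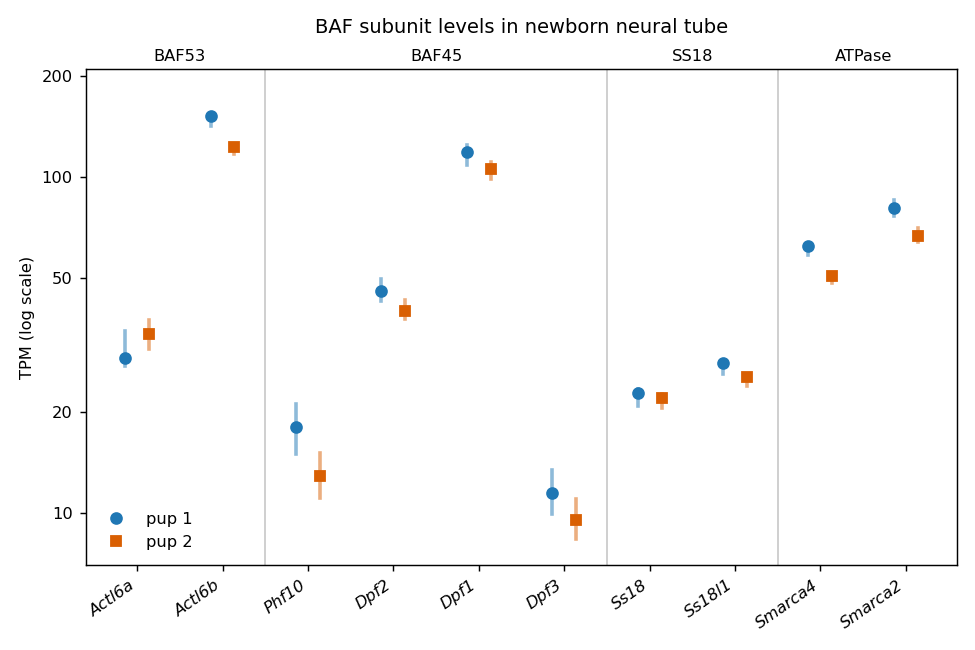
TPM of each subunit gene on a log axis, in pup 1 (circles) and pup 2 (squares), with bars for the deposited TPM interval of that library, grouped by the position in the complex. Actl6b and Dpf1 lie at 106 TPM or more in both pups, while Phf10 and Dpf3 lie between 9.52 and 18.0 TPM.

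At the BAF53 position, an actin-like protein that is part of the complex's ATPase module, the neuronal gene was the higher in both pups. Actl6a (ENSMUSG00000027671, GRCm38 chromosome 3, 32706298 to 32726973, plus strand) stood at 29.0 TPM in pup 1 and 34.1 TPM in pup 2, a mean of 31.5 ± 3.61 (SD, n = 2). Actl6b (ENSMUSG00000029712, chromosome 5, 137553517 to 137569582, plus strand) stood at 152 and 123 TPM, a mean of 138 ± 20.2 (SD, n = 2). The levels of the pair did not overlap, and the lower Actl6b library was above the higher Actl6a library. Actl6b was 5.24 times Actl6a in pup 1 and 3.62 times in pup 2, and it made up 84.0% and 78.4% of the TPM at this position. The ratio of Actl6a to Actl6b was 0.191 and 0.276, a mean of 0.233 ± 0.0605 (SD, n = 2). Actl6a took 18.9% of the pair's counts in pup 1 (95% exact Clopper-Pearson interval 17.8 to 20.1) and 23.3% in pup 2 (22.2 to 24.4). These intervals, like the others on counts here, cover counting error only.

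Most of the transcripts of both BAF53 genes were full-length coding ones. The tables split the TPM of a gene over its annotated transcripts, and one of these is called long coding here when GENCODE lists it as protein-coding with a coding sequence at least 80% as long as the gene's longest. Actl6b-205, the long coding transcript of Actl6b, held 86.9% and 86.6% of the gene. Actl6a-201 held 65.9% of Actl6a in pup 1 and 54.5% in pup 2, and the retained-intron transcript Actl6a-207 held 24.0% and 19.3%. In long coding transcripts alone, Actl6a stood at 19.1 and 18.6 TPM and Actl6b at 132 and 107 TPM, so Actl6b was 6.92 and 5.75 times Actl6a. Total Actl6a was lower in pup 1 than in pup 2 (29.0 against 34.1 TPM), and its long coding transcript was not. The deposited intervals of the pups overlapped for the gene (27.5 to 34.9 and 30.8 to 37.7 TPM), so a difference between the pups is not settled. Actl6a overlaps Mrpl47, a mitochondrial ribosomal protein gene on the opposite strand at 24.9 and 25.6 TPM, over 1577 bases. Of the 100-base windows of Actl6a transcripts, 8.49% occur in Mrpl47 transcripts on either strand, and the labels and headers give no strand setting for the counting, so a share of the Actl6a reads is uncertain.

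The microRNA sequence is shown because the textbook account names miR-9-3p, beside miR-124, as a repressor of Actl6a. The pair of windows is shown because they alone carry the seed match of miR-9-3p among the members' 3′ UTRs that were searched. RefSeq (GRCm38.p6) places an identical mature miR-9-3p at 3 genes, Mir9-1, Mir9-2 and Mir9-3. Capitals mark the seed, bases 2 to 8, in the microRNA and the complementary match AGCTTTA in the UTR windows, which were read from GENCODE transcripts on GRCm38.
mmu-miR-9-3p: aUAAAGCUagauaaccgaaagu
Actl6a-201, chr3:32726625-32726654, plus strand: cacctcaacgtctgtAGCTTTAgtacactc
Smarca2-209, chr19:26777487-26777516, plus strand: ttgtcatctagaactAGCTTTAgggtagtg
The Actl6a match starts at base 38 of a 3′ UTR of 371 bases, and the Smarca2 match at base 132 of 905. The 3′ UTRs of the other 8 members, taken from each gene's transcript with the longest coding sequence, do not hold these letters. Any further transcripts of these 8 genes were not searched. Over 20582 protein-coding genes treated in the same way, 10.1% of 3′ UTRs held the match, and 2.65% of 2038 UTRs close in length to that of Actl6a did (7.02% of 2834 for Smarca2). Transcripts with the match made up 70.6% and 65.2% of Actl6a TPM in pups 1 and 2, and 78.0% and 76.3% of Smarca2 TPM. Smarca2-209 itself was estimated at 0 TPM in both pups, and Smarca2-201 is among the transcripts that carry its match. A match of letters is a description and says nothing of whether the site is used.

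The host transcripts of these microRNAs were present in both pups. The long non-coding RNAs that span the miR-9 genes stood at 298 and 252 TPM for Gm3764 (Mir9-1), 29.6 and 24.5 TPM for C130071C03Rik (Mir9-2), and 81.4 and 78.0 TPM for Mir9-3hg (Mir9-3). For miR-124, Mir124a-1hg stood at 35.5 and 23.1 TPM and Mir124-2hg at 45.5 and 39.3 TPM. Mir124a-1hg was 1.54-fold higher in pup 1 after scaling. The deposited intervals of the pups were apart for Mir124a-1hg, Gm3764 and C130071C03Rik but not for Mir9-3hg and Mir124-2hg. They were apart for 23.6% of genes that averaged 100 counts or more. The host levels do not measure the mature microRNAs, which fall below the 200-base limit of the RNA that was kept. Gm3764 and Mir124-2hg were added after their values could be seen, and 2610307P16Rik (4.20 and 3.52 TPM), which was listed as a miR-9 host, spans no miR-9 gene in the annotation used.

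At the BAF45 position, whose proteins carry zinc fingers that read histone tails, Dpf1 was the highest of 4 genes and Dpf2 the next, in both pups. Phf10 (ENSMUSG00000023883, chromosome 17, 14945009 to 14961273, minus strand), the progenitor subunit, which serves the PBAF form of the complex, stood at 18.0 and 12.85 TPM, a mean of 15.4 ± 3.66 (SD, n = 2). Dpf1 (ENSMUSG00000030584, chromosome 7, 29303951 to 29318243, plus strand), a neuronal subunit, stood at 119 and 106 TPM, a mean of 112 ± 9.00 (SD, n = 2). The other neuronal subunit did not share the high level of Dpf1. Dpf3 (ENSMUSG00000021221, chromosome 12, 83213745 to 83487716, minus strand) stood at 11.5 and 9.52 TPM, a mean of 10.5 ± 1.39 (SD, n = 2), with every value below both values of Phf10. Dpf2 (ENSMUSG00000024826, chromosome 19, 5896516 to 5913010, minus strand), the widely expressed member of the family, stood at 46.0 and 39.9 TPM, a mean of 42.9 ± 4.31 (SD, n = 2). Of the TPM at this position, Dpf1 thus held 61.1% and 63.0%, Dpf2 23.7% in each pup, Phf10 9.28% and 7.63%, and Dpf3 5.91% and 5.66%.

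The ratio of Phf10 to a neuronal subunit at this position lay on opposite sides of 1 for the 2 neuronal partners. Dpf2, which can also fill the position in progenitors and lay above Phf10 in both pups, is not part of these ratios. Phf10 serves PBAF, and these RNA levels do not show which form of the complex a subunit enters. Phf10 was 0.152 and 0.121 times Dpf1, a mean of 0.136 ± 0.0216 (SD, n = 2), and 1.57 and 1.35 times Dpf3, a mean of 1.46 ± 0.155 (SD, n = 2). Against Dpf1 and Dpf3 summed, Phf10 stood at 0.138 and 0.111. Phf10 took 14.7% (exact interval 13.5 to 15.9) and 14.3% (13.2 to 15.3) of the counts of the Phf10 and Dpf1 pair, and 62.6% (59.0 to 66.0) and 62.7% (59.7 to 65.7) of those of the Phf10 and Dpf3 pair.

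Less of the Phf10 TPM was long coding in pup 1 than in pup 2, and the order of Phf10 and Dpf3 depended on which transcripts were summed. Phf10-201, the coding transcript, held 22.2% of the gene in pup 1 and 43.5% in pup 2, or 4.01 and 5.59 TPM. The retained-intron transcript Phf10-204 led in pup 1 with 33.9% and held 12.8% in pup 2, from 45.8 and 18.95 expected counts. Phf10-203, annotated as a target of nonsense-mediated decay, held 26.2% and 28.7% of the TPM but 64.2% and 58.1% of the counts. In pup 1 the interval of Phf10-204 (3.84 to 8.39 TPM) overlapped that of Phf10-203 (4.04 to 5.13 TPM), so its lead is not settled. Between the pups, the deposited intervals overlapped both for the gene (14.96 to 21.1 and 11.05 to 15.1 TPM) and for Phf10-201 (2.82 to 5.01 and 4.53 to 6.42 TPM). Over protein-coding transcripts only, the ratio of Phf10 to Dpf3 was 0.349 and 0.587, the reverse of the gene-level order. Over long coding transcripts it was 0.907 and 1.45, on opposite sides of 1 in the 2 pups, so the order of Phf10 and Dpf3 was not settled. The ratio of Phf10 to Dpf1 kept its direction, at 0.0347 and 0.0557 over protein-coding and 0.0560 and 0.0901 over long coding transcripts. Phf10 overlaps 1600012H06Rik on the opposite strand (16.5 and 19.8 TPM) over 14562 bases, with 2.79% of its 100-base transcript windows shared, so the split of reads between them is uncertain.

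Dpf1 and Dpf3 were each a mixture of full-length and short annotated coding transcripts. Dpf1-201 led Dpf1 with 43.5% and 46.0%, and long coding transcripts together held 60.2% and 58.5% of its TPM but 88.3% and 87.6% of its counts, since the short coding ones, Dpf1-207 and Dpf1-209, are only 428 and 438 bases long. For Dpf3, the short Dpf3-202 led with 31.2% and 34.8%, from 30.2 and 43.0 expected counts, and Dpf3-203, also short coding, held 30.4% and 24.7%. In both pups the deposited interval of Dpf3-202 overlapped that of Dpf3-207, so the lead is not settled. The full-length Dpf3-207 (1134 coding bases in 11 coding exons) held 26.2% and 30.4%, and Dpf3-206 (1068 coding bases in 9 coding exons) 12.2% and 10.1%. These full-length forms share 7 coding exons exactly and have different last coding exons, so they encode different C-terminal ends. Dpf3-207 stood at 3.01 and 2.90 TPM and Dpf3-206 at 1.41 and 0.96 TPM, with the former higher in each pup, although the deposited intervals of the 2 forms overlapped in pup 1. Dpf2-202, a coding transcript, led Dpf2 with 58.0% and 59.3%.

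**Figure D2:**
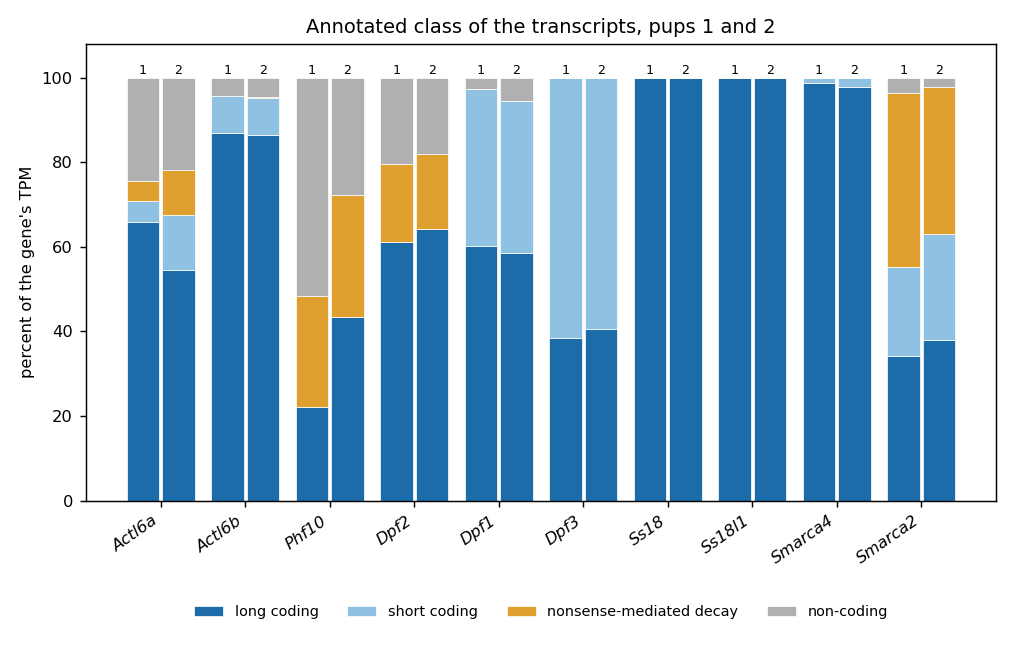
Percent of each gene's TPM held by long coding, short coding, nonsense-mediated decay and non-coding transcripts (stacked bars), with pup 1 left and pup 2 right for each gene. Ss18 and Ss18l1 are long coding throughout, whereas long coding transcripts hold 22.2% and 43.5% of Phf10 and 34.1% and 37.9% of Smarca2.

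At the SS18 position the pair lay closest in level of the 4 positions. Ss18 (ENSMUSG00000037013, chromosome 18, minus strand), the progenitor subunit and the gene fused in synovial sarcoma, stood at 22.8 and 22.0 TPM, a mean of 22.4 ± 0.587 (SD, n = 2). Ss18l1 (ENSMUSG00000039086, chromosome 2, 180042509 to 180070201, plus strand), which encodes the calcium-responsive transactivator CREST, stood at 28.0 and 25.3 TPM, a mean of 26.7 ± 1.90 (SD, n = 2). Ss18l1 was higher in both pups, and its lower library exceeded the higher Ss18 library. The ratio of Ss18 to Ss18l1 was 0.814 and 0.868, a mean of 0.841 ± 0.0380 (SD, n = 2), and Ss18l1 made up 55.1% and 53.5% of the position's TPM. In counts, which also reflect the longer Ss18l1 transcript, Ss18 took 37.1% (exact interval 35.4 to 38.8) and 38.4% (37.0 to 39.8) of the pair.

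Every annotated transcript of these genes was long coding, so the ratio over coding transcripts was the same. Ss18l1 has 1 transcript in the tables. Ss18-203, with 1161 coding bases, led Ss18 with 71.1% and 67.4%. Ss18-201 held 15.1% and 21.3%, and it differs from Ss18-203 by 1 added coding exon of 93 bases. Of the 100-base windows of Ss18 transcripts, 2.27% occur in the annotated gene Gm1826 as well.

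For the ATPase the order of the pair depended on which transcripts were summed and on the division by length. Smarca4 (ENSMUSG00000032187, chromosome 9, 21616169 to 21704230, plus strand) stood at 62.5 and 50.7 TPM, a mean of 56.6 ± 8.28 (SD, n = 2). Smarca2 (ENSMUSG00000024921, chromosome 19, 26605050 to 26778322, plus strand) stood at 80.8 and 66.7 TPM, a mean of 73.8 ± 9.98 (SD, n = 2). Within each library Smarca2 was the higher, although Smarca2 in pup 2 (66.7 TPM) lay close to Smarca4 in pup 1 (62.5 TPM). The ratio of Smarca4 to Smarca2 was 0.773 and 0.761, a mean of 0.767 ± 0.00855 (SD, n = 2), the smallest SD of the 6 ratios computed. In counts, which are not divided by length, the order was reversed. Smarca4 took 60.0% (exact interval 59.0 to 60.9) and 57.7% (56.8 to 58.5) of the pair, a ratio of 1.50 and 1.36. The estimated transcript length was 5632 and 5596 bases for Smarca4 and 2953 and 3168 bases for Smarca2. At equal TPM the longer transcripts yield more counts.

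Much of the Smarca2 TPM came from transcripts shorter than the full coding one. Smarca4 was nearly all long coding, at 98.7% and 97.9%, and Smarca4-204 held 73.2% and 74.7% of it. Smarca2-201, the full-length coding transcript, held 34.1% in pup 1 and 37.9% in pup 2, while Smarca2-215, annotated as a nonsense-mediated decay target of 1460 bases, held 38.0% and 30.2% and led in pup 1. A further 9 transcripts that start in the 3′ part of the gene (positions 26748251 to 26770491, a range chosen after the values were seen) held 22.4% and 26.9%. In long coding transcripts Smarca2 stood at 27.6 and 25.3 TPM and Smarca4 at 61.6 and 49.7 TPM, so Smarca4 was 2.23 and 1.96 times Smarca2. Over all protein-coding transcripts the ratio was 1.40 and 1.20. Smarca2 was therefore the higher ATPase gene by total TPM, and Smarca4 the higher one over protein-coding and long coding transcripts, in both pups. Smarca4 was also higher by counts, which are not corrected for its greater transcript length. The long coding transcripts held 68.9% and 71.2% of Smarca2 counts.

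**Figure D3:**
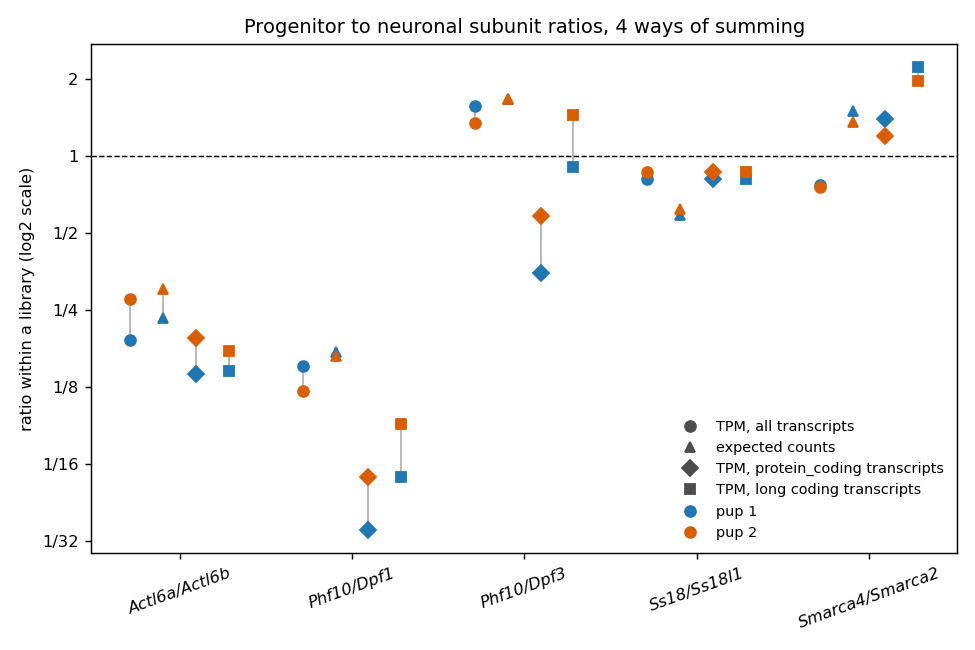
Ratio of the first to the second named gene within each library, on a log2 axis, for 5 pairs and 4 ways of summing (marker shapes). Pup 1 is in blue and pup 2 in orange, with a dashed line at equal levels. The ATPase genes Smarca4 and Smarca2 are alternatives, and neither is assigned to progenitors or neurons. The Actl6a/Actl6b, Phf10/Dpf1 and Ss18/Ss18l1 ratios stay below 1 throughout, whereas Phf10/Dpf3 and Smarca4/Smarca2 lie on both sides of it.

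The positions differed in how much RNA they had in total. The genes summed to 181 and 157 TPM at the BAF53 position, 194 and 168 TPM at BAF45, 143 and 117 TPM at the ATPase, and 50.9 and 47.3 TPM at SS18. The SS18 position was the lowest in both pups. The 6 members Actl6b, Dpf1, Dpf2, Dpf3, Ss18l1 and Smarca2 shared no 100-base window with transcripts of any other gene, and no member shared one with another member, so reads of related subunits could be told apart at that length.

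Between the pups the members were compared after scaling and by TPM. None of the 10 reached a 2-fold difference after scaling to TMM library factors (trimmed mean of M values), where 0.473% of 13544 genes that averaged 100 counts or more did, so a count of 0 is near that background. Their log2 ratios of pup 2 to pup 1 ran from -0.24 for Smarca4 and Actl6b to 0.14 for Actl6a, with a median of -0.11 beside 0.0012 for all those genes. Pup 1 was higher for 8 of 10 members after scaling, beside 49.7% of genes, and for 9 of 10 by TPM, beside 62.9%. From the deposited TPM the median log2 ratio was -0.24 for the members and -0.058 for all those genes, and Phf10 stood at -0.49 against -0.14 after scaling. The deposited intervals of the pups were apart for 4 members, Actl6b, Ss18l1, Smarca2 and Smarca4, each higher in pup 1, beside 15.9% of genes that were apart in that direction, 7.72% in the other and 23.6% in either. In the tables the intervals are centred on a posterior mean, and the Smarca4 TPM of pup 1 (62.5) lies above its own interval (58.9 to 62.1). With 1 library per pup there is no test of these differences.

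**Figure D4:**
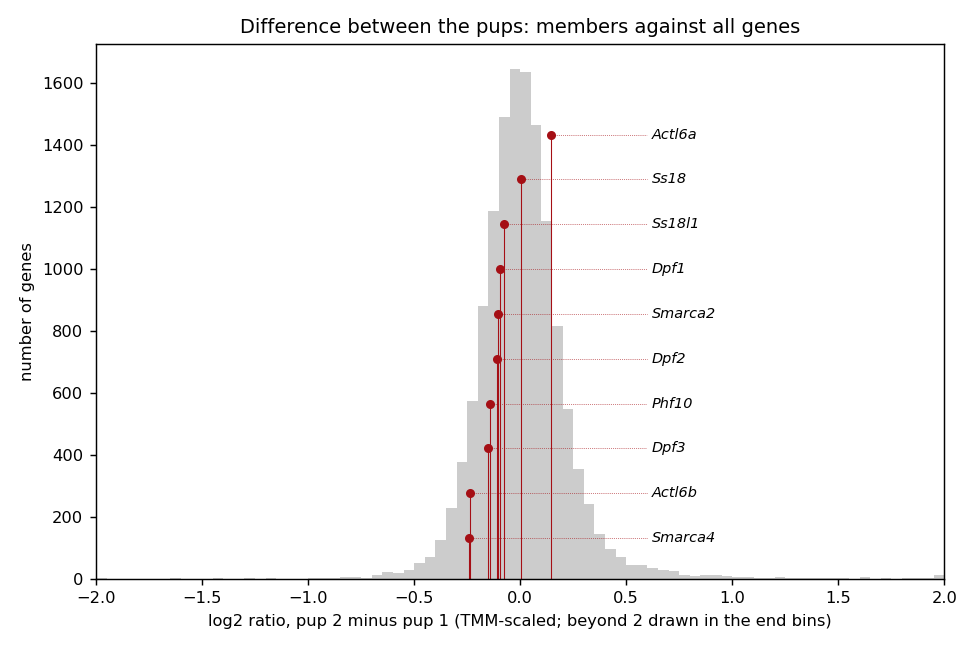
Histogram of the log2 ratio of pup 2 to pup 1 for all 13544 genes that averaged 100 counts or more (grey; number of genes), with a red point for each member at its own ratio; the height of a point has no meaning. The members lie between -0.24 and 0.14, within the bulk of the genes.

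The rest of the complex was present too. All 18 of 18 other subunit genes listed were detected in both pups, beside 63.8% of protein-coding genes. Their medians were 34.0 and 32.1 TPM, beside 15.6 and 15.02 TPM for all detected genes. Among 10 core and shared subunits, Smarcb1 (151 and 143 TPM), Smarcd3 (129 in each pup) and Smarce1 (115 and 96.9 TPM) were the highest and Smarcd2 (8.81 and 9.99 TPM) the lowest. Smarcd3 encodes BAF60c and Smarcd2 BAF60b, which fill a further variable position. The scaffold genes Smarcc2 (BAF170; 73.2 and 58.8 TPM) and Smarcc1 (BAF155; 20.1 TPM in each pup), named after their values were seen, also lay apart.

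Subunits that define the 3 forms of the complex were unequal in level. For canonical BAF, the DNA-binding subunit gene Arid1a stood at 17.3 and 14.2 TPM and its paralog Arid1b at 7.61 and 7.10 TPM. For PBAF, the bromodomain genes Pbrm1 (62.7 and 58.3 TPM) and Brd7 (51.3 and 50.7 TPM) were above Arid2 (10.3 and 9.45 TPM). For the non-canonical form, Brd9 stood at 34.6 and 33.1 TPM, Bicra at 4.30 and 3.10 TPM and Bicral at 4.00 and 3.40 TPM. Of the 3 neural partners, Bcl11a, a zinc finger gene, stood at 68.8 and 64.5 TPM and Bcl11b at 13.9 and 14.2 TPM. Adnp, a homeobox gene whose product binds the complex, stood at 12.7 and 23.9 TPM, with intervals apart and a log2 ratio of 0.77. Among the other subunit genes, intervals were apart for Arid1a and Bicra and for the core genes Smarcc2, Smarcd1 and Smarce1. Each of these was higher in pup 1, and Smarcd1 is named after its values were seen. Intervals were apart for 23.6% of genes that averaged 100 counts or more. No gene of these lists reached 2-fold, beside 0.473% of genes that averaged 100 counts or more.

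**Figure D5:**
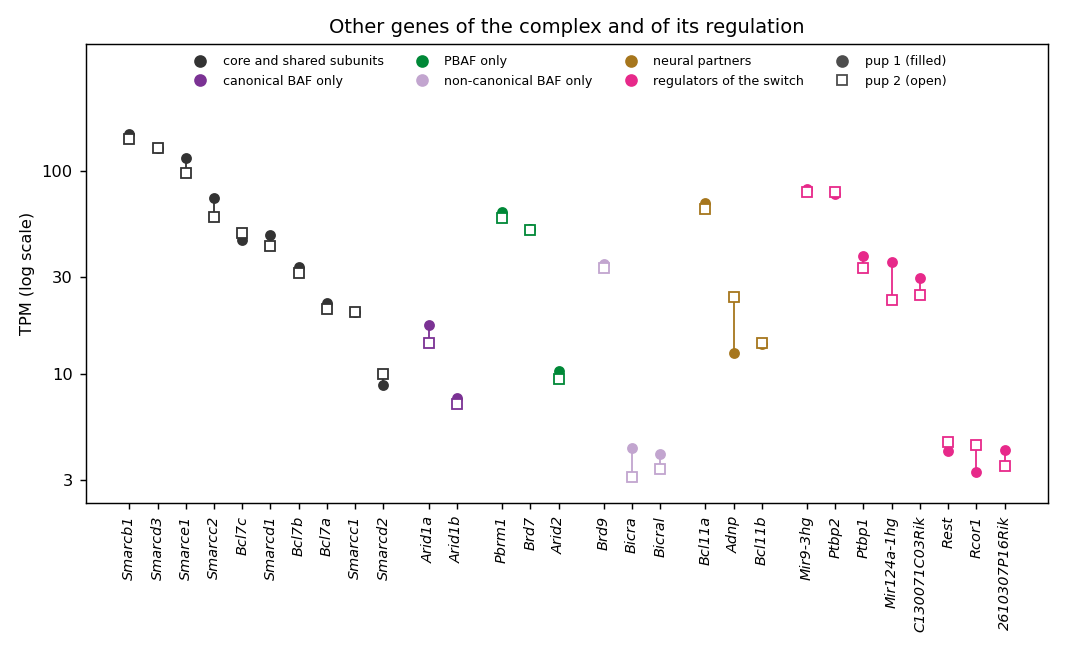
TPM on a log axis of the other subunit genes, the neural partners and the regulators, in pup 1 (filled circles) and pup 2 (open squares), coloured by list and sorted by mean within it. These genes all lie above 3 TPM in both pups, and Adnp and Mir124a-1hg have the widest gaps between the pups.

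All 8 listed regulators were detected, beside 63.8% of protein-coding genes and 35.5% of all gene rows. Ptbp2, the neuronal splicing repressor, stood at 76.8 and 78.4 TPM, and Ptbp1, the form of progenitors and non-neural cells, at 38.0 and 33.0 TPM. Rest stood at 4.15 and 4.60 TPM and its corepressor gene Rcor1 at 3.27 and 4.47 TPM, and both were named here after their values were seen. Both genes lay below the median detected gene. The deposited intervals of the pups were apart for Rcor1, which was higher in pup 2, but not for Rest. Of genes that averaged 100 counts or more, 23.6% were apart.

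A stretch of the Actl6b start region is shown because Rest was measured above and because Actl6b was the only member whose promoter window held parts of RE1, the element that REST binds. RE1 was searched as its left part CAGCACC and right part GGACAGC on both strands, in RefSeq windows of 300 bases (GRCm38.p6) from 250 bases before to 50 after each start site. Capitals mark the parts, which read on the minus strand.
Actl6b, chr5:137553564-137553593, plus strand: ggaGCTGTCCggccgcctcGGTGCTGatcc
The parts lie 21 to 43 bases after the annotated start and 9 bases from each other. Of 32851 windows, 7.14% held the left part, 6.56% the right part and 0.575% both anywhere. The spacing of 9 bases, noticed after the window was read, occurred in 2 windows, and the usual spacing of 2 bases in 7, none of a member. For comparison, CACGTG (an E-box) was in 7.15% of windows and in no member, and CCGCCAT (YY1-type) in 4.05% and in Phf10. None of these letters overlap each other in a member's window. The windows of 9 members were in the table, and that of Ss18 was not among them. These 9 held between 17 (Dpf3) and 62 (Phf10) CpG dinucleotides, beside a median of 7 over all windows. Of all windows, 68.6% held fewer than Dpf3 and 99.95% fewer than Phf10. The 32851 windows outnumber the 21474 protein-coding genes, so they are not a background of protein-coding genes alone.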

How the data were processed

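Total RNA-seq of 2 neural tubes was analysed as 1 group (n = 2). Per the labels' protocols, RNA over 200 bases was extracted with mirVana, 10 ng entered each library, and a SMARTer Ultra Low kit manual is listed. Per the file headers, the deposited gene and transcript tables hold expected counts, TPM, posterior means and TPM interval bounds, with column names as RSEM writes them. The deposited expected counts are estimated reads, and the deposited TPM values are length-corrected and share 1 total over every row of the table. A percent column in the deposited transcript files holds the part of the gene's TPM that each transcript takes. Not given in the sources used here are the aligner, the strand setting and the level of the deposited intervals. The deposited notes name mm10 and GENCODE M4. Names, transcript classes and positions were taken from GENCODE M21 (GRCm38, the same build), in which all 73 member transcripts were found, 12 of them with another length.

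Library totals were 26917269 and 40004127, of which 26345 rows that are no gene (tRNA, spike-ins, phiX) held 0.00131% and 0.00152% and were left out. At this depth a count of 0 allows up to 3 counts, or 0.111 and 0.075 CPM. Counts were rounded to whole numbers, and TMM factors (edgeR 4.0.16, R 4.3.3; genes averaging 10 counts or more) with a prior count of 2 gave log2 ratios. DESeq2 1.42.0 size factors, other count minimums and prior counts, TPM over protein-coding genes, the interval bounds, transcript subsets and each pup alone were alternatives. Calls meant 2-fold at an average of 100 counts or more, and detection a TPM of at least 1. With 1 group there was no test, and no p-value is given. The scaling was tested on simulated data. Seed and promoter letters were searched in Python 3.11.15 on GENCODE transcripts and RefSeq windows (GRCm38.p6). The mature miR-124 and protein sequences were not used here.

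The members and lists were chosen with earlier results of these data known. All members were named, and of each other list the 3 highest by mean TPM, the lowest, any gene detected in 1 pup only and any gene called. Marker lists held 2 to 7 genes per cell type. Microglia (summed 82.1 and 79.6 TPM), endothelium (140 and 112 TPM) and skeletal muscle (37.8 and 37.7 TPM, 2 of 3 genes detected) were the lists not described in the results. A gene that the naming rule covers is not reported here.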

Additional observations from a re-analysis of the deposited data

How the results depend on the processing

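Ratios are given as means of the 2 pups. Over protein-coding transcripts, the ratio of Actl6a to Actl6b was 0.169, Phf10 to Dpf1 0.0452, Phf10 to Dpf3 0.468, Phf10 to the sum of Dpf1 and Dpf3 0.0412, and Smarca4 to Smarca2 1.30; over long coding transcripts, a subset chosen after seeing the data, they were 0.159, 0.0731, 1.18, 0.0688 and 2.10. From expected counts, which are not divided by length, Phf10 to Dpf1 was 0.169, Phf10 to Dpf3 1.68, Phf10 to the sum 0.154, Ss18 to Ss18l1 0.606 and Smarca4 to Smarca2 1.43. With the numerator at its lower and the denominator at its upper deposited bound, Phf10 to Dpf1 was 0.110, Phf10 to Dpf3 1.06, Phf10 to the sum 0.0994, Ss18 to Ss18l1 0.767 and Smarca4 to Smarca2 0.688; at the other ends these were 0.173, 1.97, 0.159, 0.922 and 0.802. Posterior means gave 0.742 for Smarca4 to Smarca2. Thus Smarca4 to Smarca2 rose above 1 in 3 settings, of which the count setting keeps every transcript and differs in the division by length alone, and Phf10 to Dpf3 fell below 1 over protein-coding transcripts.

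The Smarca2 leading transcript was Smarca2-215 by posterior mean share (33.3%) and in pup 1 alone (38.0%; Smarca2-201 with 37.9% in pup 2), and that of Phf10 was Phf10-204 in pup 1 alone (33.9%; Phf10-201 with 43.5% in pup 2). The log2 difference of Ss18 between the pups was -0.053 from deposited TPM against 0.0053 scaled. Those of Actl6b (-0.30), Phf10 (-0.49), Dpf2 (-0.21), Smarca2 (-0.28) and Smarca4 (-0.30) kept their sign. They moved by more than the 95% counting half-width of the scaled ratio. Both ratios come from the same counts, so that width is a yardstick only and does not measure the error of the shift. At a mean count of at least 10, 430 genes differed 2-fold, and at 500, 16, against 64, also with DESeq2. Other scalings moved the median of all genes by at most 0.017 in size. Leaving out either pup gives the other's values, printed in the results. No paired analysis was possible because there is only 1 group. Depth limits the low transcripts most.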
